A study of Mus musculus with 6 samples.

Results

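The genes described here are markers of Kupffer cells, the macrophages that live in the sinusoids of the liver, and of other myeloid cells. The 34 genes were chosen by symbol from the 46983 rows of the count table, and every one of them was found and passed the filter on low counts. They fall into 4 groups by role: 8 resident Kupffer cell markers, 10 general macrophage genes, 8 genes shared by most myeloid cells or leukocytes, and 8 genes of monocytes, dendritic cells and neutrophils that can be recruited from the blood. Whole livers of 12-week-old, untreated, chow-fed mice on a C57BL/6 background were measured by RNA sequencing. The knockout mice (AEG-1DHEP) lacked AEG-1, the product of Mtdh, in hepatocytes, and the control mice were AEG-1fl/fl, which the sample titles call wild type. The driver of the deletion is not given in the sources used here. The labels describe 3 mice per group. Control replicate 2 repeats control replicate 1 value for value over the whole table, a difference under sampling noise, so the pair enters as 1 sample. The comparison therefore has 3 knockout livers and 2 distinct control livers.

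Kupffer cells descend largely from embryonic precursors and maintain themselves in the liver, where they take up particles, dying cells and aged red cells from portal blood. Their survival depends on the receptor encoded by Csf1r, and the transcription factor PU.1, encoded by Spi1, is needed for the myeloid lineage. In injured or inflamed liver, monocytes that carry the chemokine receptor encoded by Ccr2 enter from the blood and can become macrophages. AEG-1 was deleted in hepatocytes and not by design in these cells, so the comparison asks whether myeloid transcripts of the liver differ when hepatocytes lack AEG-1. In whole tissue, fewer cells of a type and less RNA per cell cannot be told apart.

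PU.1 and SpiC, the latter encoded by Spic and linked to red cell clearance by splenic and liver macrophages, belong to the ETS family, whose sites hold the letters GGAA. The letters GGAAGT were searched on both strands in the 250 bases before each annotated gene start. They occurred in 36.4% of the 33 windows of the 29 members with a RefSeq entry and in 19.7% of 32851 windows of all genes. The longer form GAGGAAGT, which contains GGAAGT on the same strand, occurred in 0 of the members' windows and in 2.44% of all windows. A match of letters is a description and not a measured site. RefSeq starts can differ from those of the counted genes, and 16 of the 33 members' windows, 7 of the 12 with a match among them, had bases inside the span of the counted gene. Shown are the 4 windows that hold a match, lie outside that span and end within 1 base of it. They belong to Vsig4 and Timd4 of the resident group, Fcgr1 of the general macrophage group and S100a9 of the recruited group. They come from RefSeq on GRCm38.p6 and are written 5′ to 3′ up to the base before the RefSeq start, with the match to GGAAGT or its reverse complement in capitals.
Vsig4 (chrX:96293439-96293688, minus strand): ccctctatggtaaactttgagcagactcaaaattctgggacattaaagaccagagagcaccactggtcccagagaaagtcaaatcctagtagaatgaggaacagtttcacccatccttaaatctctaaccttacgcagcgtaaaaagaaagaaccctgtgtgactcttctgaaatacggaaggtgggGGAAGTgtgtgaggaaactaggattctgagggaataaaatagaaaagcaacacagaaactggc
Timd4 (chr11:46810549-46810798, plus strand): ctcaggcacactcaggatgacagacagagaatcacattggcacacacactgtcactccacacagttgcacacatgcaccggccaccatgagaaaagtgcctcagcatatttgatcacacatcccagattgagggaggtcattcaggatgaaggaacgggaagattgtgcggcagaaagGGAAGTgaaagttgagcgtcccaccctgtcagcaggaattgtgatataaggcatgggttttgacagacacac
Fcgr1 (chr3:96293970-96294219, minus strand): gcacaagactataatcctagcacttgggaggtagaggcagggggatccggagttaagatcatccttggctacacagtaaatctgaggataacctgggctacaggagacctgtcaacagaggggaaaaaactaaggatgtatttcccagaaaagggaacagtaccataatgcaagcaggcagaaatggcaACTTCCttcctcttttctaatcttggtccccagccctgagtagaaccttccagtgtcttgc
S100a9 (chr3:90695722-90695971, minus strand): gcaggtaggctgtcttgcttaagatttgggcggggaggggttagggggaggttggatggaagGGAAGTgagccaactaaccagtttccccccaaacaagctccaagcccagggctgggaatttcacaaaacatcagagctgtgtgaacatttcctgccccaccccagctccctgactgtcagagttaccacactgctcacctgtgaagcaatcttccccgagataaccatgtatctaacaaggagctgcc
Between the match and the RefSeq start lie 57 bases in Vsig4, 66 in Timd4, 55 in Fcgr1, where the match is on the opposite strand, and 182 in S100a9.

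Library totals ran from 29557477 to 33685670 counts, and a count of 3 corresponds to 0.0905 to 0.102 CPM (counts scaled to library size and composition). Mtdh itself had 2.90, 2.23 and 2.37 CPM in knockout replicates 1 to 3 and 48.0 and 54.6 CPM in control replicates 1 and 3, so every library went with its label. Its log2 fold change, knockout minus control, was -4.36 (SE 0.15, edgeR quasi-likelihood test, adjusted p 0.000564). It was the only gene of 16441 past an adjusted p of 0.05, which is 0.00608% of the genes tested. Albumin transcripts marked all libraries as liver, with 53725 to 80510.0 CPM of Alb. The scaling factors were 1.04, 1.03 and 0.951 in the knockout libraries and 1.03 and 0.954 in the controls.

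None of the 34 myeloid genes passed the test, but 32 of them had a negative log2 fold change. The 2 with a positive value were Mertk and Cd68. By edgeR 0 members were called, and 0 also by DESeq2 and by limma-voom. At an unadjusted p under 0.05, 3 members were lower and 0 higher by edgeR, where 1.8% of all tested genes were lower and 1.63% higher. The median log2 fold change of the members was -0.23, against 0.01 over all 16441 genes, of which 47.9% were negative. The lowest adjusted p of any member was 1.00 by edgeR. Every knockout library lay below both control libraries for 11 of the 34 genes, where 8.72% of all genes did so, and for 0 members did every knockout library lie above both controls (8.16% of all genes). The lowest of the 5 values fell in a knockout library for 31 members (59.0% of all genes) and the highest in a control library for 26 (39.7% of all genes). Genes expressed in the same cells share their libraries and are not independent, so these counts describe the livers sampled.

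**Figure D1:**
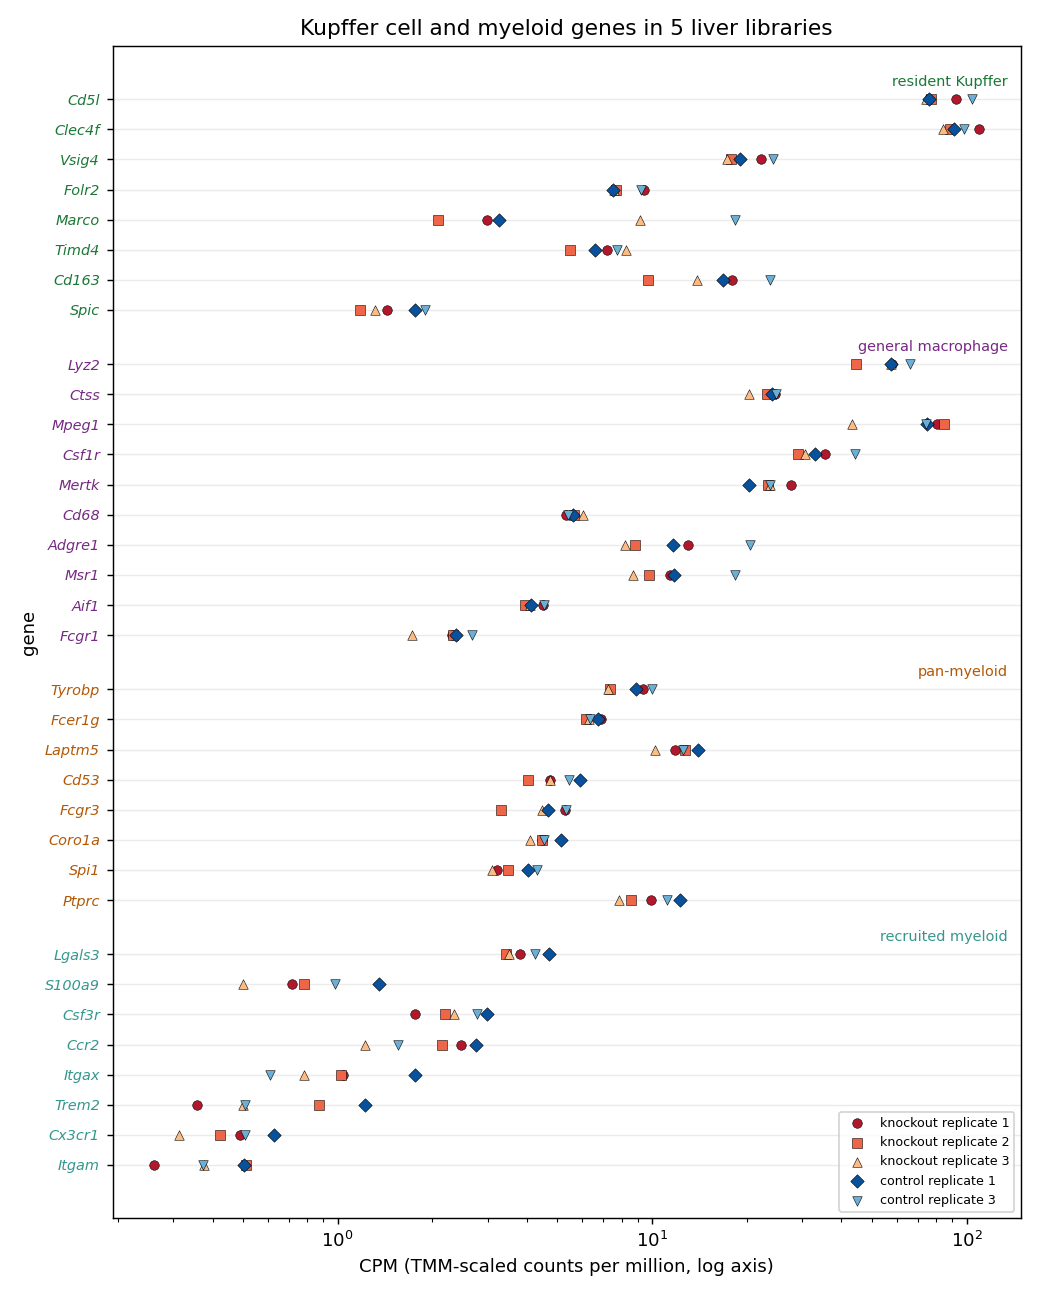
CPM of each of the 34 genes (log axis) in each of the 5 distinct libraries, grouped by role and ordered within a group by level per length. Levels run from 0.260 CPM for Itgam to 109.7 CPM for Clec4f, and the groups overlap for 23 of the 34 genes.

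The resident Kupffer cell markers included the most abundant genes of the set. Scaled to exon length and library total (TPM, a measure that can be compared between genes), the mean level over the 5 libraries was 85.1 TPM for Cd5l, a secreted scavenger protein of macrophages, and 78.4 TPM for Clec4f, a C-type lectin specific to Kupffer cells in the mouse. It was 27.7 TPM for Vsig4, a complement receptor, 15.7 TPM for Folr2, a folate receptor, and 0.805 TPM for Spic. Per length, the general macrophage gene Lyz2, a lysozyme, stood highest of all 34 with 91.2 TPM (75.4 to 102 over the libraries), a range that overlaps those of Cd5l (66.7 to 102) and Clec4f (62.4 to 98.9).

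Clec4f, the gene most particular to Kupffer cells, had 109.7, 88.3 and 84.0 CPM in the knockout livers and 91.3 and 98.3 CPM in the controls. The knockout values lay on both sides of the controls. Its log2 fold change was -0.01, with a 95% interval from -0.37 to 0.35. Timd4, a phosphatidylserine receptor of long-resident macrophages, had 7.20, 5.49 and 8.25 CPM in the knockout livers against 6.56 and 7.72 CPM, again overlapping, with -0.03 (interval -0.53 to 0.47). For Folr2 the values were 9.44, 7.69 and 7.56 CPM against 7.50 and 9.25 CPM, and the log2 fold change was -0.02 (interval -0.44 to 0.39). These 3 markers of established Kupffer cells thus had group means of nearly the same size. The sign of each depended on the library: without control replicate 3 the values were 0.04 for Clec4f, 0.09 for Timd4 and 0.14 for Folr2.

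All 8 resident genes had a negative log2 fold change, and those of Marco, Cd163 and Spic were the most negative. Cd163, the receptor for haptoglobin-bound haemoglobin, had 17.9, 9.72 and 13.9 CPM in the knockout livers and 16.8 and 23.7 CPM in the controls. Knockout replicate 1 lay above control replicate 1, so the groups overlapped, and the log2 fold change of -0.55 (SE 0.27) did not pass. Marco, a scavenger receptor that binds bacteria, was the most variable member. It had 3.00, 2.08 and 9.12 CPM in the knockout livers and 3.27 and 18.4 CPM in the controls. Control replicate 3 and knockout replicate 3 were high and the other 3 libraries low, and the log2 fold change of -1.19 (SE 0.82) became 0.54 without control replicate 3. Spic was the 1 resident gene whose groups did not overlap, with 1.43, 1.18 and 1.31 CPM against 1.76 and 1.90 CPM. It rested on 39 to 56 counts per library, with -0.48 (SE 0.23). Of all tested genes, 8.72% likewise had every knockout library below both controls. Cd5l and Vsig4 overlapped between the groups, with log2 fold changes of -0.15 and -0.17.

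Among the general macrophage genes, the receptors Adgre1 and Msr1 had the most negative values. Adgre1 encodes F4/80, the classic surface marker of mouse macrophages. It had 13.02, 8.81 and 8.19 CPM in the knockout livers and 11.6 and 20.5 CPM in the controls. Control replicate 3 stood alone at the top, knockout replicate 1 lay above control replicate 1, and the log2 fold change was -0.68 (SE 0.29). Msr1, a class A scavenger receptor, had 11.4, 9.81 and 8.69 CPM against 11.7 and 18.4 CPM. Its groups did not overlap, though knockout replicate 1 and control replicate 1 differed little. The log2 fold change of Msr1 was -0.60 (SE 0.22), with an unadjusted edgeR p of 0.0316 and an adjusted p of 1.00. Without control replicate 3 it was -0.23 for Msr1 and -0.21 for Adgre1, so control replicate 3 carried much of each value.

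Csf1r, the receptor for the macrophage growth factors CSF1 and IL-34, had 35.5, 29.1 and 30.7 CPM in the knockout livers and 32.9 and 44.3 CPM in the controls. Only control replicate 3 lay outside the range of the knockout livers, and the log2 fold change was -0.28 (SE 0.16). Mpeg1, a pore-forming protein of the phagosome, had 80.6, 84.9 and 43.3 CPM against 74.9 and 74.6 CPM. Knockout replicate 3 alone was low, and without it the log2 fold change of -0.10 became 0.15. Lyz2 had 58.0, 44.4 and 57.6 CPM against 57.3 and 66.2 CPM, where knockout replicate 2 was the low library. Its counts are uncertain because Lyz1 is a near-identical copy.

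The remaining general genes differed little. Cd68, a lysosomal glycoprotein of macrophages, had 5.34, 5.64 and 6.03 CPM in the knockout livers and 5.59 and 5.39 CPM in the controls, a log2 fold change of 0.05 (interval -0.32 to 0.41). Mertk, a receptor for the uptake of dying cells, had 27.6, 23.3 and 23.7 CPM against 20.3 and 23.6 CPM, with 0.18 (interval -0.14 to 0.49). Both were positive in the full comparison, and both overlapped between the groups. The lysosomal protease gene Ctss had -0.10 (SE 0.12), the narrowest error of the set. Aif1, which encodes the actin-binding protein Iba1, had -0.05 (SE 0.17). Fcgr1, the high-affinity IgG receptor, had a non-overlapping but small difference of 2.31, 2.32 and 1.72 CPM against 2.39 and 2.68 CPM, with -0.26 (SE 0.23).

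**Figure D2:**
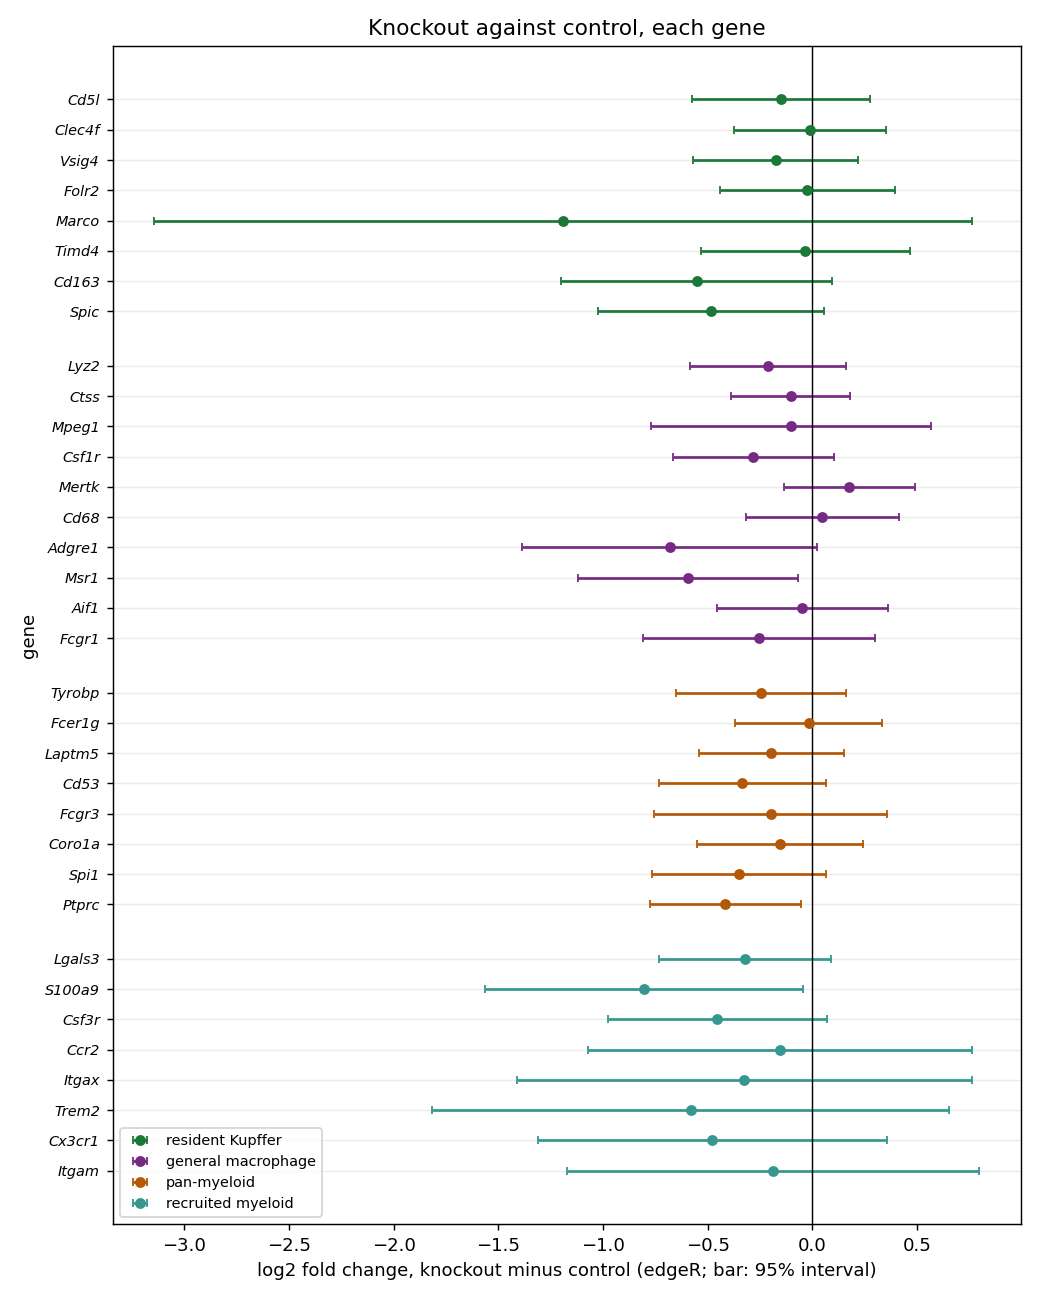
Log2 fold change (knockout minus control) of each gene with its 95% interval from edgeR, coloured by role. The points of 32 genes lie left of 0, the intervals of 3 genes (Msr1, Ptprc and S100a9) exclude 0 before adjustment, and that of Marco is the widest, from -3.14 to 0.76.

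The pan-myeloid genes were the most even group. All 8 had a negative value, between -0.42 and -0.02, and all 8 intervals lay within 1 of 0 on the log2 scale. Ptprc, which encodes the leukocyte antigen CD45, had 9.90, 8.57 and 7.84 CPM in the knockout livers and 12.3 and 11.1 CPM in the controls. The groups did not overlap, and the log2 fold change was -0.42 (SE 0.15), with an unadjusted edgeR p of 0.0293 and an adjusted p of 1.00. Spi1 had 3.22, 3.47 and 3.09 CPM against 4.02 and 4.30 CPM, likewise without overlap, with -0.35 (SE 0.17). Cd53, a tetraspanin of leukocytes, had 4.72, 4.04 and 4.75 CPM against 5.90 and 5.45 CPM, with -0.33 (SE 0.17). Coro1a, a leukocyte actin regulator, had 4.46, 4.47 and 4.09 CPM against 5.12 and 4.54 CPM, with -0.15 (SE 0.17). With Ptprc, Spi1 and Cd53 it made up the 4 of 8 genes whose groups did not overlap. For Coro1a the gap was small and depended on scaling. Its counts before scaling were 137, 148 and 131 against 163 and 134, which overlapped. Of all tested genes, 8.72% had every knockout library below both controls. The 4 pan-myeloid genes kept a negative value without any 1 library.

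Fcer1g and Tyrobp encode the FcR gamma chain and DAP12, membrane adaptors that carry activation motifs for receptors without signalling tails. Fcer1g had 6.87, 6.16 and 6.31 CPM in the knockout livers and 6.72 and 6.33 CPM in the controls, fully overlapping, with -0.02 (interval -0.37 to 0.33). Tyrobp had 9.34, 7.33 and 7.25 CPM against 8.92 and 9.99 CPM, and here knockout replicate 1 lay within the range of the controls (-0.25, SE 0.17). Fcgr3, an IgG receptor that signals through the FcR gamma chain, had -0.20 (SE 0.23), and Laptm5, a lysosomal membrane protein of leukocytes, -0.20 (SE 0.14). Coro1a overlaps Bola2 on the opposite strand and Csf1r overlaps Hmgxb3, and since the strand setting of the counting is not given, the assignment of reads in the exon stretches they share is uncertain.

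The recruited myeloid genes were scarce. Their summed level was 10.9, 11.4 and 9.53 CPM in the knockout livers and 15.9 and 11.6 CPM in the controls, against 264, 209 and 216 CPM and 222 and 288 CPM for the resident group. All 8 had a negative log2 fold change, between -0.80 and -0.15. S100a9, a calcium-binding protein abundant in neutrophils, had 0.716, 0.784 and 0.500 CPM in the knockout livers and 1.35 and 0.982 CPM in the controls. The groups did not overlap, at 16 to 43 counts per library, and the log2 fold change was -0.80 (SE 0.32) with an unadjusted edgeR p of 0.0409 and an adjusted p of 1.00. Without control replicate 1 the value of S100a9 was -0.56, and without control replicate 3 it was -1.01. S100a8, of the further neutrophil genes, had too few counts to be tested. It had 9, 10 and 9 counts in the knockout livers and 30 and 9 in control replicates 1 and 3. Csf3r, the receptor for the neutrophil growth factor G-CSF, had 1.76, 2.20 and 2.34 CPM against 2.98 and 2.78 CPM, with -0.45 (SE 0.22). Lgals3, the lectin galectin-3 of macrophages and other cells, had 3.81, 3.44 and 3.50 CPM against 4.71 and 4.23 CPM, with -0.32 (SE 0.17). For S100a9, Csf3r and Lgals3 each control library lay above every knockout library, as it did for 8.72% of all tested genes.

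The monocyte and dendritic cell markers of this group were less even. Ccr2 had 2.47, 2.14 and 1.22 CPM in the knockout livers and 2.76 and 1.56 CPM in the controls, with overlapping groups and a log2 fold change of -0.15 (SE 0.38). Itgax, which encodes the dendritic cell integrin CD11c, had 1.04, 1.03 and 0.781 CPM against 1.76 and 0.610 CPM, so that the controls held both the highest and the lowest value. Trem2, a lipid-sensing receptor of macrophages in damaged tissue, had 0.358, 0.875 and 0.500 CPM against 1.22 and 0.508 CPM, where control replicate 1 was the high library. Cx3cr1, the fractalkine receptor of monocytes, had -0.48 (SE 0.35) at 10 to 20 counts per library. Its groups did not overlap, with 0.488, 0.422 and 0.312 CPM against 0.628 and 0.508 CPM. Of all tested genes, 8.72% had every knockout library below both controls. For Cx3cr1 this depended on scaling, since knockout replicate 1 and control replicate 3 each had 15 counts. Itgam, the integrin CD11b, had -0.19 (SE 0.41) at 8 to 17 counts, where a difference of this size was not detectable. Exons of Itgam overlap those of Gm49368 on the same strand, which had 0 counts. The assignment of reads in the stretches these 2 genes share is uncertain, so the level of Itgam is too. For the recruited group, 2 of 8 intervals lay within 1 of 0, against 5 of 8 in the resident group.

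The 2 control livers differed from each other in opposite directions for the resident and recruited members, though this contrast was not particular to them. All 8 resident genes were higher in control replicate 3 than in control replicate 1, by a median log2 difference of 0.32, and so were 8 of the 10 general macrophage genes (median 0.18). In contrast, 0 of the 8 recruited genes were higher in control replicate 3 (median -0.39), and 3 of the 8 pan-myeloid genes were (median -0.10). Over all tested genes 49.3% were higher in control replicate 3. Of the sinusoidal endothelial markers described below, 11 of 12 were higher there (median 0.29). The further monocyte genes went against the recruited members, with 6 of 8 tested genes higher in control replicate 3 (median 0.38). Of B and plasma cell markers 0 of 8 were higher (median -0.81), and of tested erythroid genes 1 of 5 (median -0.69). The highest of the 5 libraries was control replicate 3 for 5 resident and 7 general macrophage genes, and control replicate 1 for 7 recruited genes. With 1 liver on each side this contrast between the controls has no replicate check and no test.

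**Figure D3:**
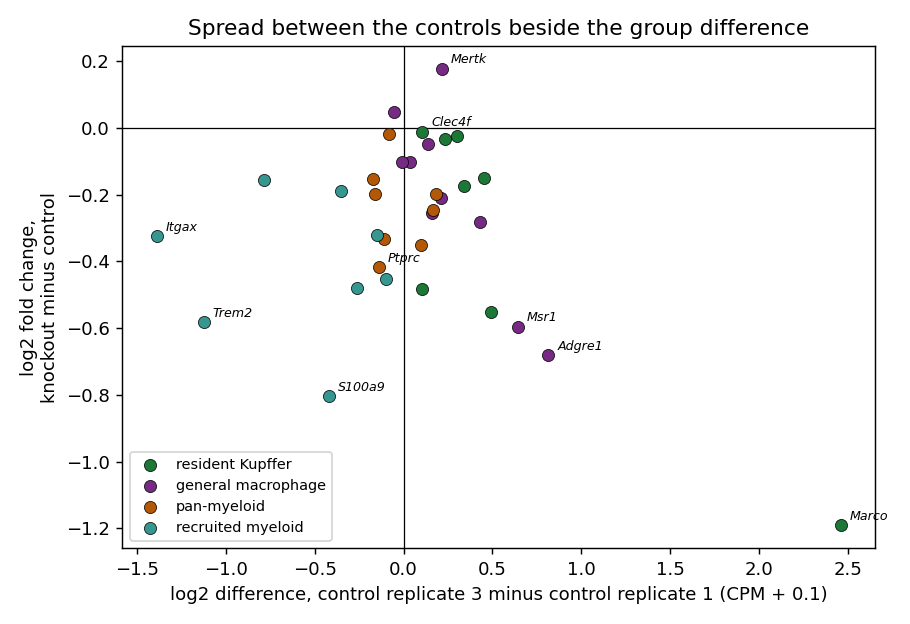
Difference between the control livers (x axis, log2 of CPM + 0.1, replicate 3 minus replicate 1) beside the log2 fold change of knockout against control (y axis), 1 point per gene. All 8 recruited genes lie left of 0 and all 8 resident genes right of 0 on the x axis, where Marco reaches 2.46 and Itgax -1.39. The control values enter both axes.

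Set apart in this way, resident and recruited genes gave medians of -0.16 and -0.39, with -0.16 for general macrophage and -0.22 for pan-myeloid genes. The medians moved with the control libraries. Without control replicate 3 the resident median was 0.07 and the recruited median -0.56. Without control replicate 1 they were -0.35 and -0.10, so their order turned. Leaving out knockout replicate 1 gave -0.28 for resident and -0.25 for general macrophage genes. The general macrophage median was -0.08 when knockout replicate 3 was left out and -0.09 when control replicate 3 was. The pan-myeloid median ran from -0.35 (without knockout replicate 1) to -0.20. The mean log2 level of the resident genes minus that of the recruited genes, each relative to its mean over the 5 libraries, was 0.18, -0.44 and 0.32 in the knockout livers and -0.60 and 0.54 in the controls. The difference between the group means was 0.05, against an SD of 0.41 among the knockout livers and 0.80 between the controls. Marco, 1 of the 8 resident genes, weighs heavily in these values. It differed by 2.46 between the controls and had a log2 fold change of -1.19, and the difference without Marco was not computed. No difference between resident and recruited genes in their response was detectable with these libraries.

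**Figure D4:**
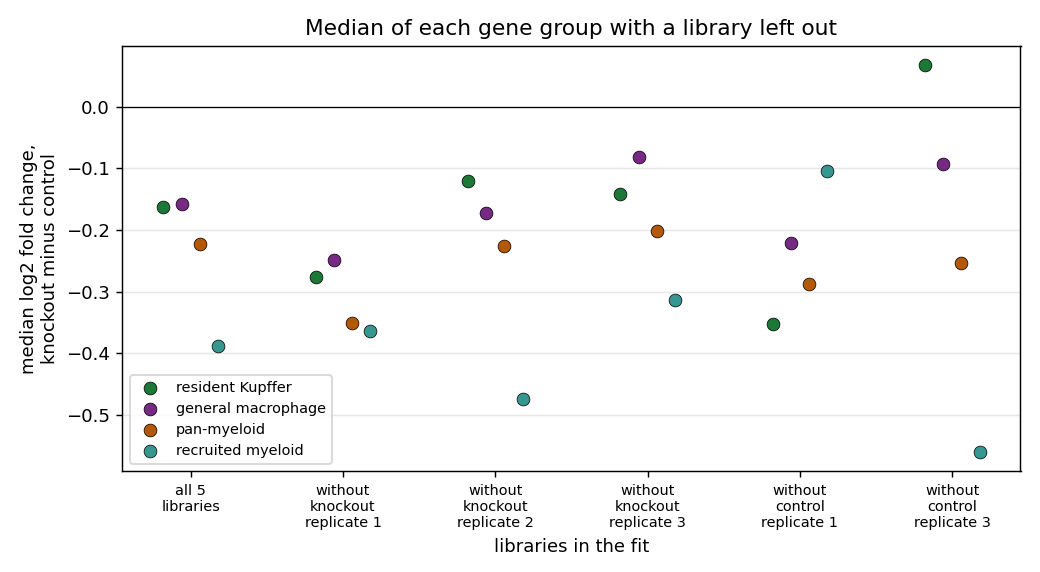
Median log2 fold change of each role group with all 5 libraries and with each library left out in turn. The pan-myeloid median stays between -0.35 and -0.20, while the resident median moves from -0.35 to 0.07 and the recruited median from -0.56 to -0.10, depending on the control library in the fit.

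Other genes of the same cells and pathways showed no member past the threshold by edgeR. Of 18 further Kupffer cell genes, 13 had a negative and 5 a positive value (median -0.14). The complement genes C1qa, C1qb and C1qc, made mainly by macrophages in the liver, had -0.08, -0.17 and -0.12. Cd207, the lectin langerin, had 0.521, 2.20 and 2.53 CPM in the knockout livers and 3.39 and 6.30 CPM in the controls, with -1.46 (SE 0.58) and an adjusted p of 1.00. Ccl24, an eosinophil chemokine, went the other way, with 2.25, 1.45 and 1.66 CPM against 1.10 and 1.19 CPM (0.64, SE 0.28). Hpgd, which degrades prostaglandins and is also expressed by other liver cells, had 129.9, 96.6 and 92.2 CPM against 74.8 and 75.6 CPM (0.50, SE 0.18). The groups did not overlap for Cd207, Ccl24 and Hpgd, as for 16.9% of all tested genes in either direction.

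In the list of CSF1R ligands and myeloid regulators, 7 of 10 genes were negative (median -0.17). The ligand genes had 0.17 (SE 0.16) for Csf1 and -0.06 (SE 0.26) for Il34. The transcription factor gene Zeb2 had 9.67, 9.53 and 6.97 CPM against 10.6 and 12.8 CPM (-0.43, SE 0.19), and Runx1 0.456, 0.362 and 0.406 CPM against 0.534 and 0.813 CPM (-0.71, SE 0.34). Egr1, an immediate early gene, had -1.49 (SE 0.59) and ranged from 12.5 to 31.4 CPM between the controls. Of the 15 tested genes that signal with or beside the adaptors Fcer1g and Tyrobp, 13 were negative (median -0.19), among them Clec4n, which encodes the lectin Dectin-2, with -0.68 (SE 0.28), Sirpa with -0.28 (SE 0.14) and Btk with -0.60 (SE 0.32). Of 13 genes for the uptake of dying cells, 9 were negative (median -0.12), with -0.28 (SE 0.13) for the scavenger receptor Stab1, -0.25 (SE 0.13) for Axl and 0.38 (SE 0.23) for Gas6, the ligand of Axl and Mertk. These pathway lists are not confined to myeloid cells. Stab2 of the uptake list and Fcgr2b of the adaptor list are counted again among the sinusoidal endothelial markers below.

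Chemokines and further markers of blood-derived cells are given next. Of the 9 tested myeloid chemokines, 6 were negative (median -0.19). Cxcl1, a neutrophil attractant, had 6.67, 6.49 and 12.2 CPM in the knockout livers and 16.9 and 27.7 CPM in the controls. The groups did not overlap, and its log2 fold change was -1.40 (SE 0.33), with an unadjusted edgeR p of 0.00435 and an adjusted p of 1.00. Ccl2, the ligand of Ccr2, had -0.19 (SE 0.32). Ccl5 had -0.58 (SE 0.31) and Ccl6 -0.36 (SE 0.25). Of 12 further monocyte genes 8 could be tested, 6 of them negative (median -0.23), with -0.39 (SE 0.24) for Treml4. Of 13 further neutrophil genes, only 3 passed the filter on low counts (Lcn2, Il1b and Mmp9, with -0.27, -0.05 and 0.01). The granule genes Ngp, Camp and Mpo had at most 0.102 CPM in any library, while Ltf, Mmp8 and Elane reached 0.260, 0.203 and 0.126 CPM. Of 10 tested dendritic cell and antigen presentation genes, 8 were negative (median -0.51). The class II genes Cd74 with -0.57 (SE 0.22) and H2-Ab1 with -0.63 (SE 0.22) did not overlap between the groups. The same held for H2-Aa with -0.56 (SE 0.23) and H2-Eb1 with -0.50 (SE 0.22). Nor did Xcr1 overlap, a marker of cross-presenting dendritic cells, with -1.11 (SE 0.44) at 6 to 30 counts per library. For these 5 of the 10 genes, and for Cxcl1, every knockout library lay below both controls, where 8.72% of all tested genes did so. Clec9a with -0.11 (SE 0.21) and Zbtb46 with -0.05 (SE 0.14), of the same list, overlapped. The 2 positive genes were Flt3 with 0.45 (SE 0.55) and Ccr7 with 0.11 (SE 0.60). Genes of lipid-laden macrophages were negative for 5 of 11 (median 0.08), several of them, such as Apoe and Plin2, being abundant in hepatocytes too.

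Markers of other non-hepatocyte cells also had mostly negative values. All 12 sinusoidal endothelial markers had a negative value (median -0.39), and their summed level was 346, 269.5 and 248 CPM in the knockout livers and 325 and 396 CPM in the controls. Of 10 stellate cell and pericyte markers 9 were negative (median -0.14), with sums of 310.1, 263 and 215 CPM against 292 and 303 CPM. The 5 tested erythroid genes were all negative (median -0.27), with sums over the list of 469, 543 and 424 CPM against 674 and 503 CPM. Of the defining T and NK cell markers 3 of 4 tested were negative (median -0.28), at 4 to 20 counts per library. Cd4 was the positive one, with 1.01, 1.90 and 1.59 CPM against 0.722 and 0.948 CPM. Its groups did not overlap, as was so for 8.16% of all tested genes with the knockout above. Its log2 fold change was 0.85 (SE 0.35), with an unadjusted edgeR p of 0.0491. Of B and plasma cell markers 5 of 8 were negative (median -0.09) and of cholangiocyte markers 5 of 7 (median -0.16). The 10 hepatocyte markers had 6 negative values and a median of -0.04. By the mean log2 level of a list, both controls also lay above every knockout library for the CSF1R, adaptor signalling, chemokine, dendritic cell and stellate cell lists. None of these genes passed by edgeR, and none of the defining markers was at 0 in all libraries. The summed level of the 34 myeloid genes was 593, 506 and 478 CPM against 545 and 644 CPM, and, as with the endothelial sum, knockout replicate 1 lay between the controls. These sums are carried by a few abundant genes. As a mean of log2 levels in which every gene counts alike, the 34 genes had -0.01, -0.14 and -0.18 in the knockout livers and 0.13 and 0.20 in the controls, without overlap. The part of the cell makeup of each sample in the myeloid values was not tested.

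**Figure D5:**
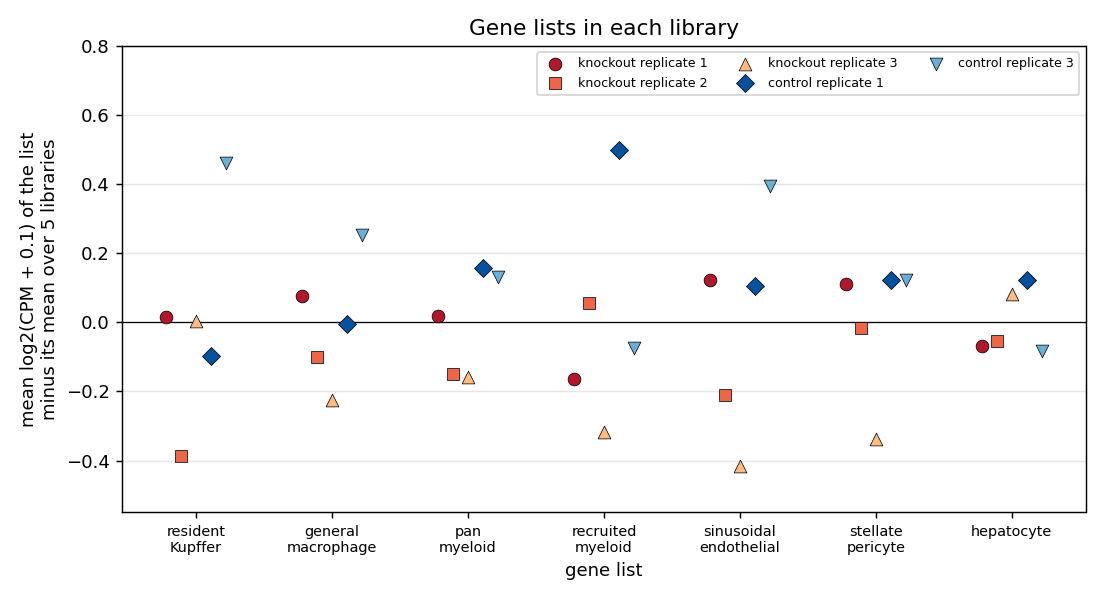
Mean log2(CPM + 0.1) of 7 gene lists in each library, relative to the list's mean over the 5 libraries. The lists are the 4 role groups and the endothelial, stellate and hepatocyte markers. In the pan-myeloid group both controls (0.16 and 0.13) lie above the knockout libraries (0.02, -0.15 and -0.16). The stellate and pericyte list also has both controls (0.12 and 0.12) above the knockout libraries, the highest of which is at 0.11, and the other lists shown overlap.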

How the data were processed

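The authors deposited raw read counts per gene for 6 liver libraries. Tools listed in the submitters' processing notes are featureCounts 1.4.6-p4, Subread 1.4.6-p4, Trimmomatic 0.33 and FastQC, with mm10 and GRCm38 as builds. The kit was Illumina's TruSeq RNA kit, per the labels' protocols, and the strand setting is not given in the sources used here. Symbols came from GENCODE vM21. The members, the gene lists and the rule for named genes (Mtdh, all members, and the 3 genes with the smallest p in each other list) were chosen with earlier results of these data known. The text does not hold to that rule throughout. Genes outside it, such as C1qa, Csf1 and Ccl2, are also named. Some genes within it, such as Pecam1, Rgs5, Sox9 and Cyp2e1, are not given one by one. The 3 knockout and 2 distinct control libraries were compared with edgeR's quasi-likelihood test (two-sided, filterByExpr, TMM scaling), adjusted by the Benjamini-Hochberg method over 16441 genes. SEs and 95% intervals were derived from its F statistic. Values per length used the gene lengths in the deposited table. Intervals cover only the spread between these samples, which the labels call biological replicates. Promoter windows came from RefSeq. Scripts were tested on simulated data. The software was DESeq2 1.42.0, edgeR 4.0.16 and limma 3.58.1 under R 4.3.3, with Python 3.11.15. Alternatives were DESeq2, limma-voom, other scalings, no filter, a replicate block, each library left out, and, chosen after seeing the data, all 6 columns.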

Additional observations from a re-analysis of the deposited data

How the results depend on the processing

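No member was called under any of the 12 alternatives, where the lowest adjusted p of any member was 0.404. Over all genes, 19 were called by DESeq2, 3 without a low-count filter and 1 to 6 with a library left out. Same-numbered mice share only a number, and the fit with a replicate block called 0 genes and left 1 member at an unadjusted p under 0.05, against 3 in the comparison as reported. That member count was 1 with library totals only, 5 without the filter, 7 on all 6 columns as deposited and 1 to 4 with a library left out. Members with a negative value numbered 25 to 31 with a library left out, and the median over all members ran from -0.34 to -0.19. The medians ran from -0.35 to 0.07 for resident, -0.25 to -0.08 for general macrophage, -0.35 to -0.20 for pan-myeloid and -0.56 to -0.10 for recruited genes.

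Of 34 members, 21 kept their sign throughout. The sign turned for 13. With library totals only, Clec4f had 0.011 and Folr2 0.00053. With the replicate block, Fcer1g had 0.014, Clec4f 0.020, Folr2 0.021 and Timd4 0.11. On all 6 columns, Clec4f had 0.0073, Folr2 0.028 and Timd4 0.0076. With a library left out, the ranges were -0.27 to 0.15 for Mpeg1, -0.12 to 0.025 for Aif1, -0.067 to 0.020 for Fcer1g, -0.50 to 0.31 for Ccr2, -0.88 to 0.63 for Itgax, -1.07 to 0.18 for Trem2 and -0.46 to 0.039 for Itgam. They were -0.37 to 0.097 for Cd5l, -0.14 to 0.062 for Clec4f, -0.34 to 0.0082 for Vsig4, -0.17 to 0.14 for Folr2, -2.09 to 0.54 for Marco and -0.17 to 0.11 for Timd4. The cause was not tested. A fit without a control replicate leaves a single control, which is assumed to vary like the knockout libraries.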

Other observations

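Marco was not alone in being high in the libraries numbered 3 of both groups. Cebpb, a transcription factor gene of myeloid cells and hepatocytes that was named after its values were seen, had 10.2, 10.95 and 17.9 CPM in the knockout livers and 10.3 and 18.9 CPM in control replicates 1 and 3. These libraries also had the lowest scaling factors, 0.951 and 0.954. Timd4 was also highest in these libraries, with 8.25 and 7.72 CPM, but by little over the 7.20 CPM of knockout replicate 1. Clec4f was not, since its highest value was in knockout replicate 1. The cause was not tested.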
